A study of Mus musculus with 18 samples.

Results

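The transcripts of enteroendocrine cells, the hormone-secreting cells of the gut lining, were followed in sorted mouse colon epithelium. All probes of the deposited array table whose gene symbol was Chga, Chgb, Gcg, Pyy, Cck, Sst, Sct, Insl5, Tph1 or Neurod1 were taken, each on its own, which gave 12 probes of 10 genes out of 45281 probes and 30869 gene symbols. Chga had 3 probes and the other genes 1 each. The mice were wild-type (WT) or carried a deletion of Mbd2 in all tissues (Mbd2KO). They were left untreated (naive) or drank 2% dextran sulphate sodium (DSS), a sulphated sugar polymer that damages the colon lining and brings on colitis. Both genotypes were on the C57BL/6 background and were kept together as littermates where possible. The cells were sorted by flow cytometry for the epithelial protein EpCAM after exclusion of leukocytes, and the labels give the tissue as colon epithelium. RNA was hybridised to Illumina MouseWG-6 arrays. There were 4 samples in each of the 4 groups, naive WT (samples 9 to 12), naive Mbd2KO (13 to 16), DSS WT (1 to 4) and DSS Mbd2KO (5 to 8), on 18 arrays, since samples 4 and 5 were each run a second time.

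Enteroendocrine cells are scattered singly among colonocytes and goblet cells and arise from crypt progenitors that switch on a series of transcription factors, of which Neurog3 and then Neurod1 are the best known. They store hormones in dense-core granules, whose matrix is built by the granins chromogranin A (Chga) and chromogranin B (Chgb). In the colon the main kinds are L cells, which make proglucagon (Gcg, the precursor of GLP-1), peptide YY (Pyy) and, in the distal bowel, insulin-like peptide 5 (Insl5), and enterochromaffin cells, which make serotonin with tryptophan hydroxylase (Tph1). Somatostatin (Sst) comes from D cells, whereas cholecystokinin (Cck) and secretin (Sct) are best known from the small intestine.

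Mbd2 is a reader of methylated CG dinucleotides, so the stretch ahead of the transcription start is shown for 5 members, Chga, Chgb and Tph1 on one side and Pyy and Insl5 on the other, which moved together within each set from sample to sample. Sequences are from RefSeq (GRCm38.p6) and cover the 250 bases before an annotated start, read 5′ to 3′ on the strand of the gene. Capitals mark CG and the cyclic-AMP response motif TGACGTCA. No DNA methylation or protein binding was measured here.
Chga, chr12:102554691-102554940, plus strand: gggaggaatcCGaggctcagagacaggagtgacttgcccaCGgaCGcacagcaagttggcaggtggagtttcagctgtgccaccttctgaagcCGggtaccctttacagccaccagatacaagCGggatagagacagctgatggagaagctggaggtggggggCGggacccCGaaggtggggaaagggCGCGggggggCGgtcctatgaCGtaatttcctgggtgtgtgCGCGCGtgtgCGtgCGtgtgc
Chgb, chr2:132781392-132781641, plus strand: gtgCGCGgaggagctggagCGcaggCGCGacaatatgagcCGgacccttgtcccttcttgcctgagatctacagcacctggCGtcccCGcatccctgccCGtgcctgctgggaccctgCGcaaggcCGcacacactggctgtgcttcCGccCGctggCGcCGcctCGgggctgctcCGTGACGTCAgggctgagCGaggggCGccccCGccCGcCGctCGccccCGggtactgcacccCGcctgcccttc
Tph1, chr7:46667378-46667627, minus strand: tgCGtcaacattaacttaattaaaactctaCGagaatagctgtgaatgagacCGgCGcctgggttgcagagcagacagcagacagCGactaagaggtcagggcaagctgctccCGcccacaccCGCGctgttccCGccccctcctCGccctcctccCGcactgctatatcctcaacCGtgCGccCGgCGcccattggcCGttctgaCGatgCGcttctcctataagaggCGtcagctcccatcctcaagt
Pyy, chr11:102107777-102108026, minus strand: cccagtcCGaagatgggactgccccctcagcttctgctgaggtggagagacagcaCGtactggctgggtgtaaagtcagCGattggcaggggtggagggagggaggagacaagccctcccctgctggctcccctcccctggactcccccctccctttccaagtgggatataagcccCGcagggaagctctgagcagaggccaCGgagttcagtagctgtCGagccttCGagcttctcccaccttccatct
Insl5, chr4:103026729-103026978, minus strand: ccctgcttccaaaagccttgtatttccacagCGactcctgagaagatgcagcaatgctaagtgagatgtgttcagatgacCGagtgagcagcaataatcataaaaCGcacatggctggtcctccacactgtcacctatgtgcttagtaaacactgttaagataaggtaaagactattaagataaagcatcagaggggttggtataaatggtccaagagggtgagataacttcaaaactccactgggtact
CG was counted 16 times in the Chga stretch, 26 times in Chgb, 19 times in Tph1, 7 times in Pyy and 3 times in Insl5, the lowest count among the 13 stretches of the 10 genes. The second annotated start that Tph1, Pyy and Insl5 each have gave 5, 5 and 6. The counts thus depend on which start is taken, most of all for Tph1. Of the other members, Sct and Neurod1 had 22 each, Cck 9, Sst 8 and Gcg 7, so high counts were not particular to Chga, Chgb and Tph1. Over 32536 such stretches of annotated mouse genes, 92.2% held at least 1 CG and the median count was 6, with quartiles of 2 and 16. TGACGTCA, searched on both strands, was present in 1.56% of all stretches and in 2 of the 13, those of Chgb (first base at -72 from the start) and Sst (at -48). TATAAA, also searched on both strands, was present in 12.3% of all stretches and in 4 of the 13, belonging to Gcg, Sct and both annotated starts of Insl5. CANNTG, the E-box letters read by Neurod1 and many other factors, was present in 66.2% of all stretches and was found in those of every member except Tph1. These are letter matches within the windows and say nothing of whether a factor was bound.

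The signals were corrected for background, normalized by quantiles and are given as log2, so that 1 unit is a doubling. Levels are given on this scale for each sample and cannot be compared between probes. Of the 12 probes, 11 were detected above the negative controls on 18 of 18 arrays and Neurod1 on 15 of 18, so all 12 entered the test. Between 18851 and 20618 of the 45281 probes were detected per array. The Mbd2 probe was detected on 0 of 18 arrays (lowest detection p-value 0.151), so the genotype labels could not be checked by it. The epithelial identity list (Epcam, Cdh1, keratins, Vil1 and others) was tested with all 10 of its genes. One limma model over the 16 samples gave all fold changes, with adjustment over 21938 probes. A probe was called at an adjusted p under 0.05, and the study's own rule (adjusted p under 0.01 and a log2 fold change of at least 1) is given where it was met. P-values measure the spread between these samples, and per the labels a sample could hold RNA of more than 1 mouse. In a bulk sample, fewer cells of a type and less of its RNA per cell cannot be told apart.

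Insl5 fell with DSS, and Chga, Tph1 and Neurod1 were lower in Mbd2KO than in WT cells when naive and DSS samples were averaged. Insl5 was 3.59-fold lower with DSS over both genotypes (log2 fold change -1.84, SE 0.430, 95% interval -2.75 to -0.94, adjusted p 0.00632), the only member to meet the study's rule, which 0.62% of all probes met in that direction. With each sample left out in turn it met that rule in 6 of 16 fits, and missed it without sample 1, 3, 4, 5, 6, 10, 11, 12, 13 or 14 (adjusted p 0.0106 to 0.0152). Tph1 was lower by 0.73, Chga by 0.63 at its probe ILMN_2716146 and Neurod1 by 0.55 on the log2 scale in Mbd2KO cells, with adjusted p between 0.0394 and 0.0448. The 12 probes are plotted for each sample first, and their fold changes after that.

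**Figure D1:**
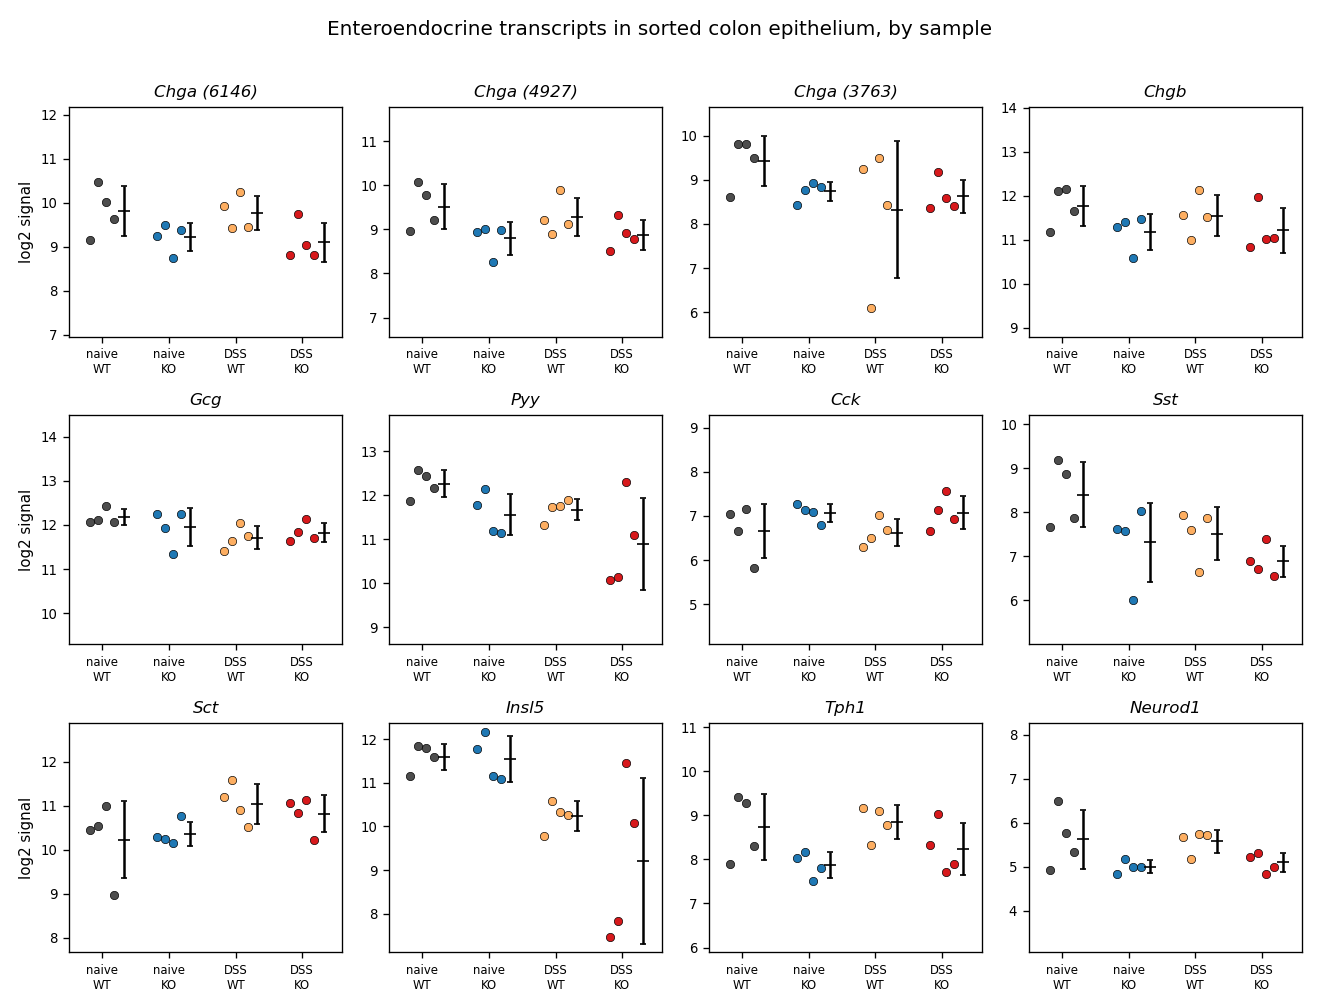
Log2 signal of the 12 probes in each of the 16 samples, with the mean and SD of each group (n = 4) to the right of its points; the vertical axes differ between panels and do not start at 0, and the Chga panels carry the last 4 digits of the probe. Insl5 lay between 11.08 and 12.16 in the naive samples and between 7.46 and 11.45 with DSS, and samples 5 and 6 were low for both Insl5 and Pyy.

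**Figure D2:**
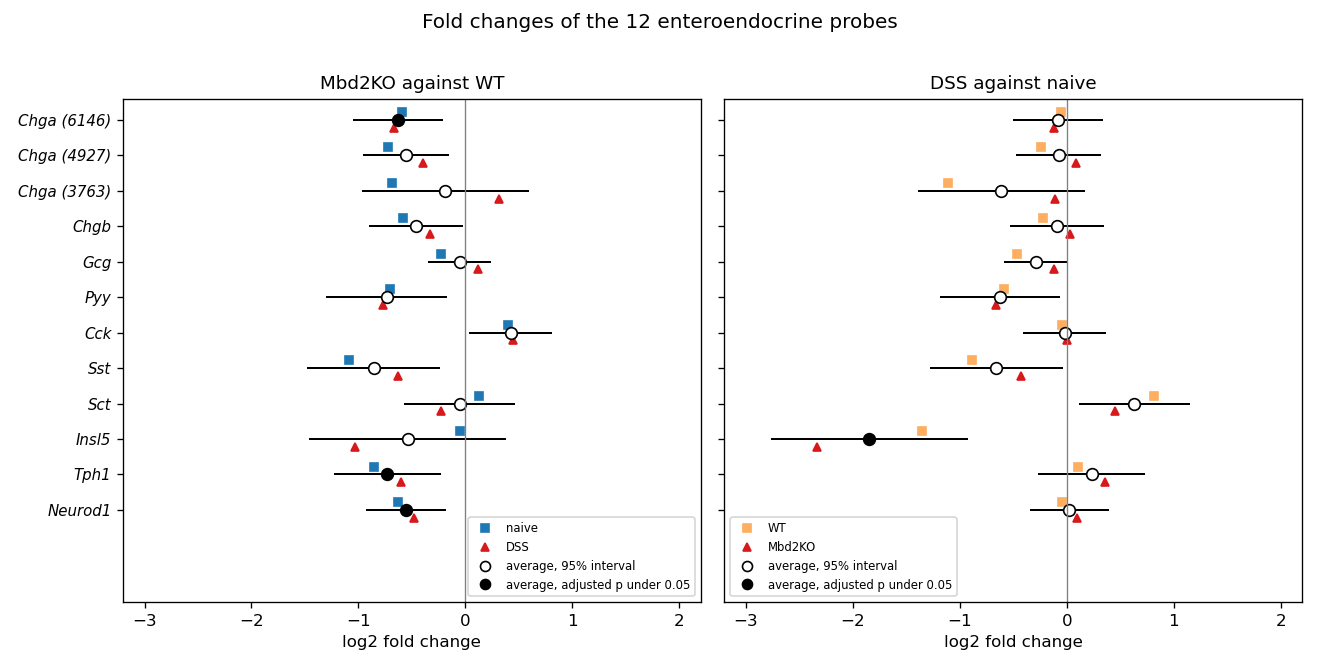
Log2 fold changes of the 12 probes for Mbd2KO against WT (left) and DSS against naive (right), with squares and triangles for the separate comparisons and circles with 95% intervals for their average. The average of Chga (ILMN_2716146), Tph1 and Neurod1 on the left and of Insl5 on the right passed an adjusted p of 0.05.

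The granins were described first. Chga at ILMN_2716146, a probe whose transcript position is 1374 to 1423, read 9.14, 10.47, 10.02 and 9.64 in the naive WT samples against 9.25, 9.49, 8.75 and 9.38 in naive Mbd2KO. With DSS it read 9.92, 9.43, 10.25 and 9.46 in WT against 8.81, 9.75, 9.03 and 8.81 in Mbd2KO. Mbd2KO samples were thus mostly at the low end in both conditions, but the groups overlapped. The log2 fold change of Mbd2KO against WT was -0.60 (SE 0.275) without DSS and -0.66 (SE 0.275) with it, with adjusted p of 0.209 and 0.164, and the average was -0.63 (95% interval -1.04 to -0.22, adjusted p 0.0394). The second Chga probe, ILMN_2814927, gave an average of -0.56 (SE 0.186, adjusted p 0.0529). The third, ILMN_2723763, gave -0.69 without DSS and 0.31 with it, and its average was -0.19 (SE 0.366, adjusted p 0.769). Its value of 6.09 in DSS WT sample 2 lay far below the 8.44 to 9.50 of the other DSS WT samples, while the other Chga probes read 9.43 and 8.89 in that sample. Without sample 2 the fold change of this probe with DSS was -0.43 (adjusted p 0.522). Chgb read 11.18, 12.10, 12.15 and 11.65 in naive WT and 11.28, 11.40, 10.58 and 11.47 in naive Mbd2KO. With DSS its levels were 11.56, 10.99, 12.13 and 11.52 in WT and 10.84, 11.97, 11.01 and 11.04 in Mbd2KO. The groups overlapped, and the averaged difference of -0.46 (SE 0.203, 95% interval -0.89 to -0.03) had an adjusted p of 0.139. DSS moved neither granin past the test. The averaged log2 fold change was -0.09 for Chgb, -0.09 and -0.08 for 2 Chga probes, and -0.61 for ILMN_2723763, whose DSS WT mean includes the low sample 2. Under scaling to a common median the averages of Chgb and of the same 2 Chga probes turned positive (0.28, 0.30 and 0.30).

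Tph1, the rate-limiting enzyme of serotonin synthesis outside the brain, had levels of 7.90, 9.43, 9.29 and 8.31 in naive WT and 8.04, 8.16, 7.50 and 7.81 in naive Mbd2KO. With DSS the WT samples read 9.16, 8.33, 9.11 and 8.77 and the Mbd2KO samples 8.32, 9.03, 7.70 and 7.89. Most Mbd2KO samples were below most WT samples, with naive WT sample 9 and DSS Mbd2KO sample 6 as the exceptions. The difference was -0.85 (SE 0.328, adjusted p 0.134) without DSS, -0.60 (adjusted p 0.297) with it and -0.73 on average (SE 0.232, 95% interval -1.22 to -0.24, adjusted p 0.0448), a 1.66-fold lower level. Neurod1, a transcription factor of committed enteroendocrine cells, was the one member not detected on every array. It read 4.92, 6.49, 5.77 and 5.33 in naive WT and 4.82, 5.18, 5.00 and 4.99 in naive Mbd2KO, and was detected on 3 of 4 arrays in each. With DSS it read 5.67, 5.18, 5.74 and 5.72 in WT (5 of 5 arrays) and 5.23, 5.32, 4.84 and 5.00 in Mbd2KO (4 of 5 arrays). All Mbd2KO values were at or under 5.32, whereas WT values reached 6.49. Its averaged difference was -0.55 (SE 0.172, 95% interval -0.92 to -0.19, adjusted p 0.0402), but -0.18 without background correction (0.0754) and -0.31 with an offset of 50 (0.0562).

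These 3 calls were lost when no probe was filtered out (adjusted p 0.0842 to 0.0994), Tph1 also without background correction (-0.56, 0.0584), and they depended on single samples. Chga (ILMN_2716146) stayed called in 7 of 16 fits that each left out 1 sample, Neurod1 in 5 and Tph1 in 4. Chga lost its call without sample 1, 3, 5, 7, 8, 10, 11, 13 or 15 (adjusted p 0.0597 to 0.0826), Neurod1 without 1, 3, 4, 5, 7, 8, 10, 11, 13, 15 or 16 (0.0503 to 0.0778) and Tph1 without 1, 3, 4, 5, 7, 8, 10, 11, 13, 14, 15 or 16 (0.0502 to 0.0943). The log2 fold change stayed below 0 in all of them, from -0.74 to -0.52 for Chga, -0.67 to -0.41 for Neurod1 and -0.87 to -0.61 for Tph1.

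Of the L-cell hormones, Insl5, an orexigenic peptide of the distal colon, had the largest difference with DSS. Its levels were 11.16, 11.84, 11.79 and 11.58 in naive WT and 11.78, 12.16, 11.15 and 11.08 in naive Mbd2KO. With DSS they were 9.78, 10.59, 10.34 and 10.25 in WT and 7.46, 7.82, 11.45 and 10.08 in Mbd2KO. Without DSS the genotypes overlapped throughout (difference -0.05, SE 0.609, adjusted p 0.975). Every DSS WT sample was below every naive WT sample (-1.35, SE 0.609), with an adjusted p of 0.167 when the spread was estimated over all groups and 0.00426 in a fit to both WT groups alone. The DSS Mbd2KO samples were split, with samples 5 and 6 far below all others and sample 7 within the naive range. Both arrays taken as sample 5 were low (7.45 and 7.48). The change with DSS in Mbd2KO was -2.34 (5.05-fold, SE 0.609, 95% interval -3.62 to -1.05, adjusted p 0.0231). That call was lost with no filter on dim probes (adjusted p 0.0602), in a fit to both Mbd2KO groups alone (0.0840) and without sample 5 (-1.75), 6 (-1.88) or 14 (-2.13), with adjusted p of 0.0694 to 0.0754, whereas the average over both genotypes was called in 16 of 16 such fits, between -2.21 and -1.55. The DSS effect was not shown to differ between genotypes (difference -0.99, SE 0.861, adjusted p 0.735).

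Pyy, which slows gut transit and curbs appetite, read 11.87, 12.56, 12.43 and 12.16 in naive WT and 11.77, 12.13, 11.19 and 11.15 in naive Mbd2KO. After DSS it stood at 11.32, 11.72, 11.76 and 11.89 in WT and 10.06, 10.14, 12.30 and 11.10 in Mbd2KO. As for Insl5, samples 5 and 6 were the lowest and sample 7 stood above the rest of its group. The genotype difference averaged -0.74 (SE 0.263, 95% interval -1.29 to -0.18, adjusted p 0.0692) and the DSS difference -0.62 (SE 0.263, adjusted p 0.103). Without sample 7, the Mbd2KO difference with DSS was -1.24 for Pyy (adjusted p 0.0207) and -1.78 for Insl5 (0.0431), against -0.77 (0.233) and -1.03 (0.340) with it. Leaving out sample 5 moved them the other way, to -0.49 for Pyy (adjusted p 0.483) and -0.45 for Insl5 (0.702), as did leaving out sample 6 (-0.52, 0.471 and -0.57, 0.644). Gcg, the third L-cell transcript, did not share this split. It read 12.07, 12.12, 12.44 and 12.06 in naive WT and 12.25, 11.94, 11.34 and 12.26 in naive Mbd2KO. After DSS its levels were 11.41, 11.63, 12.05 and 11.75 in WT and 11.63, 11.83, 12.14 and 11.71 in Mbd2KO. All DSS WT samples were below all naive WT samples, by a difference of -0.46 (SE 0.192, adjusted p 0.136), and samples 5 to 8 lay between 11.63 and 12.14. Gcg and Insl5 were the 2 members whose groups did not overlap between naive and DSS WT cells, where 17% of all tested probes did not overlap.

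Sst, an inhibitor of the secretion of other gut hormones, read 7.67, 9.19, 8.87 and 7.88 in naive WT and 7.63, 7.58, 6.02 and 8.04 in naive Mbd2KO. In DSS samples it read 7.94, 7.60, 6.65 and 7.87 in WT and 6.89, 6.71, 7.39 and 6.56 in Mbd2KO. The groups overlapped, and the averaged genotype difference was -0.86 (SE 0.292, 95% interval -1.47 to -0.24, adjusted p 0.0575). Sct, which drives bicarbonate secretion, read 10.45, 10.53, 10.99 and 8.97 in naive WT and 10.28, 10.25, 10.15 and 10.77 in naive Mbd2KO. In DSS samples it was 11.19, 11.58, 10.90 and 10.51 in WT and 11.07, 10.84, 11.13 and 10.21 in Mbd2KO. It was the member with the most positive difference with DSS, 0.63 on average (SE 0.241, 95% interval 0.12 to 1.14), but it did not pass the test (adjusted p 0.0719). After scaling to a common median in place of quantile normalization the Sct difference was 1.03 (adjusted p 0.00268), a setting that also moved the median of all probes with DSS by 0.25. Cck, which triggers gallbladder contraction and satiety, read 7.05, 6.65, 7.16 and 5.81 in naive WT and 7.27, 7.13, 7.08 and 6.80 in naive Mbd2KO. With DSS it read 6.29, 6.50, 7.03 and 6.68 in WT and 6.66, 7.14, 7.56 and 6.93 in Mbd2KO. It was the 1 probe of the 12 with a positive averaged genotype difference (0.42, SE 0.180, adjusted p 0.123).

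Counts over the 12 probes were read against all 21938 tested probes. For Mbd2KO against WT with DSS, limma called 0 of 12 where 5.62% of all probes were called, and 1 of 12 had an unadjusted p under 0.05 where 22.2% of all probes did. Without DSS it called 0 of 12 where 5.2% were called, and 5 of 12 had an unadjusted p under 0.05 where 22.8% did. For the genotype average, 3 of 12 were called lower and none higher, against 7.91% of all probes lower and 6.62% higher. The difference was negative for 11 of the 12 probes, with a median of -0.55, where 50.9% of all probes were negative and their median was -0.0044. The 3 probes of Chga are not independent of each other. Neither are the members that moved together from sample to sample, Pyy with Insl5 and Chga with Chgb and Tph1. For DSS against naive, 0 of 12 were called in WT, where 10.4% of all probes were, and 5 had an unadjusted p under 0.05, as 26.3% of all probes did. In Mbd2KO 1 of 12 was called, lower, where 4.54% of all probes were called lower. In the DSS average 1 of 12 was called lower (background 10.2% lower), and the median was -0.090. The genotype effect was not shown to depend on DSS for any member, with 0 of 12 called where 0% of all probes were, and 0 of 12 at an unadjusted p under 0.05 where 10.7% of all probes were.

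The samples of a group differed from each other in 2 distinct ways. After each group's mean was taken off, the 9 member genes detected on every array (for Chga, the probe ILMN_2716146) were compared in pairs over the 16 samples, with p from 100000 permutations within groups and adjustment over the 36 pairs. Pyy and Insl5 moved together (Pearson's r 0.958, permutation p 0.00013, adjusted 0.00234; Spearman's rho 0.885, permutation p 0.0016, adjusted 0.0145). Chga and Chgb did so too (r 0.919, permutation p 0.00013, adjusted 0.00234; rho 0.926, permutation p 0.00011, adjusted 0.00396). Tph1 followed both granins, with r of 0.870 to Chga (rho 0.812) and 0.833 to Chgb (rho 0.821), and adjusted permutation p of 0.00612 and 0.0081 for r. The 2 samples farthest from the median of the first-named gene of each pair were then left out. With them removed, r was 0.903 for Pyy and Insl5, 0.920 for Chga and Chgb, 0.788 for Chga and Tph1 and 0.789 for Chgb and Tph1. With all samples, these were the 4 of 36 pairs with an adjusted p under 0.05 for r. Of the 36 coefficients 31 were positive, with a median of 0.299. Gcg, though made by L cells like Pyy and Insl5, had an r of 0.405 to the mean of that pair and 0.411 to the mean of Chga, Chgb and Tph1. The plot of deviations shows the pair and the trio as rows of like colour.

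**Figure D3:**
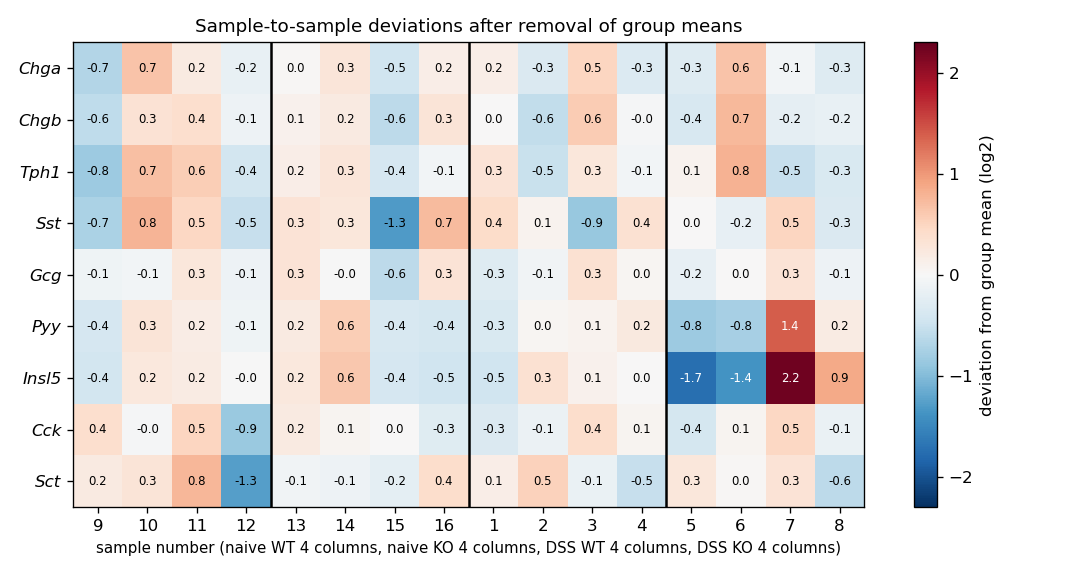
Deviation of each sample from its group mean (log2, colour and number) for the 9 member genes detected on every array, with samples in columns and black lines between the groups. Chga, Chgb and Tph1 were high in samples 10 and 6 and low in samples 9 and 15, whereas Pyy and Insl5 were low in samples 5 and 6 and high in sample 7.

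Samples 6 and 7 told the sets apart. Sample 6 had the highest Chga, Chgb and Tph1 of the DSS Mbd2KO group while its Pyy and Insl5 were lower than in every sample but sample 5, whereas sample 7 had the highest Pyy and Insl5 and the lowest Tph1 of that group. Which genes were most like each set was listed over 15747 genes, as a description and with the sets chosen after the pairs had been seen. Closest to Chga, Chgb and Tph1 were Wif1 (r 0.886), a secreted Wnt inhibitor, the granule protein Resp18 (0.837) and Rgs4 (0.832), and the enteroendocrine factor Insm1 ranked 8 (0.786). Fev, the serotonergic transcription factor, ranked 21 (0.726) but was detected on only 10 of 18 arrays. The tachykinin precursor Tac1, whose product substance P is made in enterochromaffin cells, ranked 86 (0.635). The lists these come from went both ways, with positive coefficients for 12 of 16 granule genes (median 0.364), 12 of 17 transcription factors (0.257), 4 of 11 other gut peptides (-0.055) and 1 of 4 serotonin genes (-0.243). Some lists of other cells were mostly positive too, with 8 of 9 stem cell markers (0.265), 6 of 7 tuft cell markers (0.265), 12 of 12 stroma and smooth muscle markers (0.186) and 7 of 7 leukocyte markers (0.089). Colonocyte markers (3 of 9 positive, -0.171) and epithelial identity genes (2 of 10, -0.238) were mostly negative. Closest to Pyy and Insl5 were the colonic proton pump Atp12a (0.940), Mptx1 (0.920, listed under an older symbol) and Apobr (0.909, detected on 14 of 18 arrays). The pancreatic polypeptide gene Ppy, a neighbour of Pyy in family and in the genome, ranked 5 (0.887). In its list of other gut peptides 8 of 11 were positive (median 0.314, lowest -0.552). Positive too were 13 of 16 granule genes (0.302), 13 of 17 transcription factors (0.131) and 3 of 6 sensors of nutrients and bile acids (-0.117). Among lists of other cells these were 8 of 12 stroma and smooth muscle markers (0.307), 8 of 9 goblet cell markers (0.216) and 3 of 9 stem cell markers (-0.109). Against the mean of all 9 genes, the highest coefficients were those of 1110062M06Rik (0.852), Kremen2 (0.850), Tnxb (0.848), Lcn8 (0.833), Xlr4a (0.823), Aplp1 (0.818), Dlgap4 (0.817), Cryab (0.809), Smarce1-ps1 (0.806) and Klk1b24 (0.801). Of these, 1110062M06Rik was detected on 6 of 18 arrays, Lcn8 on 11, Aplp1 on 16 and the rest on 18. The granule inhibitor Pcsk1n ranked 13 (0.794), and the 16 tested genes of prohormone processing and granules had a median r of 0.537 where that of all genes was -0.0069. The 12 stroma and smooth muscle markers also had a positive median (0.452), as did the 9 goblet cell markers (0.361).

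The rest of the enteroendocrine programme was read from lists of known genes, 1 probe a gene. Of 26 genes for prohormone processing and granule proteins, 16 were tested, and 8 of the 16 were called lower and 0 higher in Mbd2KO cells on average, against 7.91% lower and 6.62% higher among all probes, with a median of -0.48. The convertase chaperone Scg5 (-0.75, SE 0.145, adjusted p 0.00302), Resp18 (-0.71, SE 0.153, 0.0061) and the vesicle-priming factor Cadps (-0.71, SE 0.158, 0.00727) were among them, as were synaptophysin (Syp), Pam, Vgf and Cpe. With DSS on average, 5 of the 16 fell and 2 rose, where 10.2% of all probes fell and 10.6% rose. The granin Scg2 fell by 1.02 (SE 0.227, adjusted p 0.00466), the calcium sensor Scgn by 0.78 (SE 0.112, 0.000151), carboxypeptidase E (Cpe) by 0.76 (SE 0.140, 0.00128) and Scg3 by 0.58 (SE 0.119, 0.00267). Scg2 was detected on only 1 of 5 DSS Mbd2KO arrays, so its level there is near background.

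Of 20 transcription factors of the lineage, 17 were tested, and 6 were called lower and 1 higher in Mbd2KO cells on average (median -0.35), beside the same 7.91% and 6.62%. Nkx2-2, needed for most enteroendocrine fates, fell by 0.83 (SE 0.210, adjusted p 0.0155), Isl1 by 0.54 (SE 0.133, 0.0127), Lmx1a, a factor of enterochromaffin cells, by 0.51 (SE 0.134, 0.0178) and Pax4 by 0.46 (SE 0.127, 0.0224). Neurog3, which starts the programme, was not called between genotypes and rose with DSS by 0.70 on average (SE 0.209, adjusted p 0.0257). Foxa2 fell with DSS in Mbd2KO cells by 1.08 (SE 0.187, adjusted p 0.0023) and by 0.76 on average (SE 0.132, 0.0008). For serotonin, 4 of 8 genes were tested, and Slc18a1, the vesicle transporter of enterochromaffin cells, was detected on 0 arrays. Ddc, which completes serotonin synthesis after Tph1, was lower in Mbd2KO both without DSS (-0.75, SE 0.155, adjusted p 0.0121) and with it (-0.78, SE 0.155, 0.00897). It was also lower with DSS in WT (-0.85, adjusted p 0.00272) and in Mbd2KO (-0.88, 0.00269), the former no longer called after scaling to a common median (-0.45, 0.0501). The serotonin transporter Slc6a4, which is found on absorptive cells, fell on average by 0.86 in Mbd2KO cells (SE 0.223, adjusted p 0.0171) and by 0.98 with DSS (0.00547). The amine-degrading enzyme Maob was lower by 1.68 in Mbd2KO than WT cells with DSS (SE 0.318, adjusted p 0.0067). Gch1, which makes the cofactor of Tph1 and stands in both lists, rose with DSS by 0.48 on average (SE 0.110, 0.00584).

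**Figure D4:**
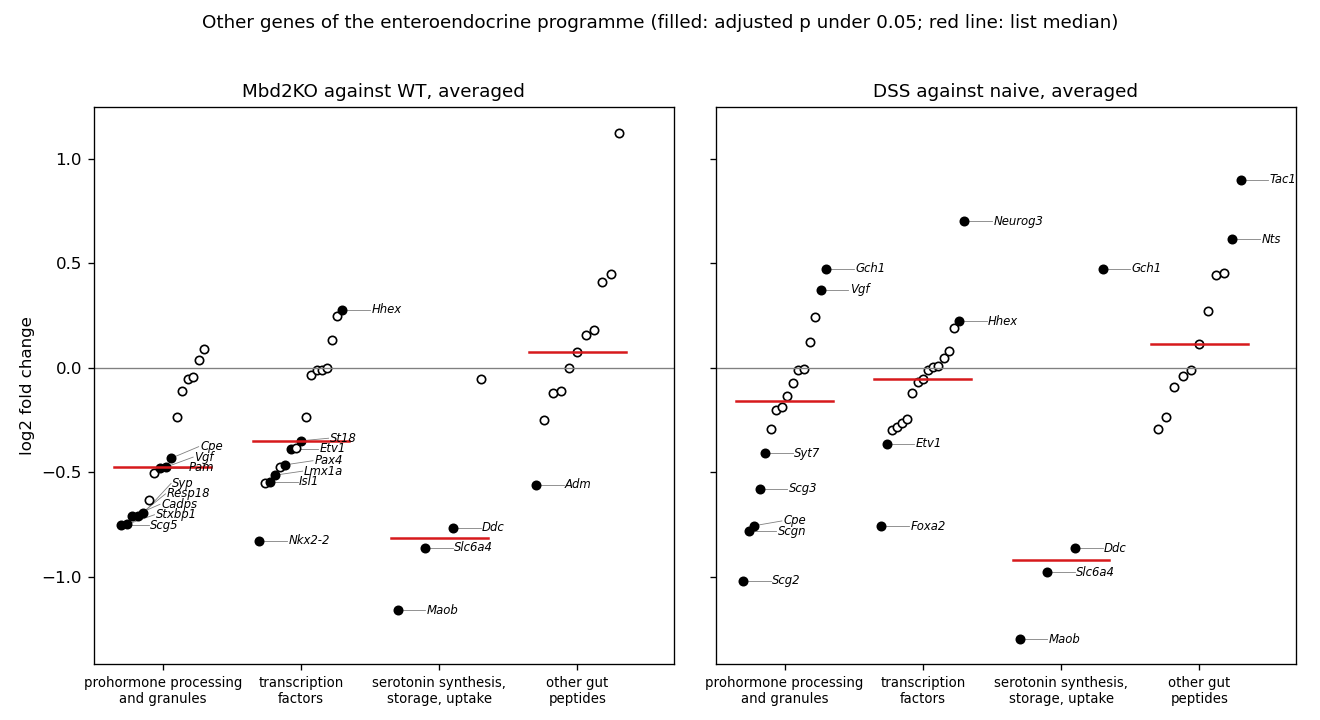
Averaged log2 fold changes of the tested genes in 4 lists, for Mbd2KO against WT (left) and DSS against naive (right), with a point for each gene and a red line at the list median. Filled, named points passed an adjusted p of 0.05, and the granule list had 8 such genes, all lower, on the left and 5 lower and 2 higher on the right.

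Among 11 tested genes of other gut peptides, Tac1 rose with DSS in WT by 1.02 (SE 0.189, adjusted p 0.003) and in Mbd2KO by 0.78 (0.0163), and neurotensin (Nts) rose in Mbd2KO by 0.85 (SE 0.226, 0.0257). No other peptide of that list was called in either DSS comparison. Of 16 sensors of nutrients and bile acids, 6 were tested. The short-chain fatty acid receptor Olfr78 was lower in Mbd2KO by 1.11 on average (SE 0.162, adjusted p 0.000416) and the long-chain fatty acid receptor Ffar4 by 0.61 (SE 0.109, 0.00184), whereas the potassium channel subunit Abcc8 rose with DSS in WT by 1.08 (SE 0.218, 0.00556). Of 21 receptors of the hormones, 7 were tested, and the peptide YY and neuropeptide Y receptor Npy1r fell with DSS in both genotypes (-1.54, SE 0.215, adjusted p 0.000525 in WT and -1.48, SE 0.215, 0.000681 in Mbd2KO). In DSS Mbd2KO cells Olfr78 was detected on 1 of 5 arrays and Npy1r on 2 of 5, near background.

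Other cell types moved with the same comparisons. The summed level of 12 stroma and smooth muscle markers was 12870 to 16805 in DSS WT and 6246 to 8964 in DSS Mbd2KO, and 8570 to 16026 in naive WT against 7362 to 9297 in naive Mbd2KO, and 7 of the 12 were called lower in Mbd2KO on average (7.91% of all probes). Leukocyte markers, 7 of 12 tested, summed to 1774 to 3686 in DSS WT and 2607 to 3009 in DSS Mbd2KO, and to 622 to 1052 in naive WT and 677 to 1650 in naive Mbd2KO. All 7 were called higher with DSS on average (10.6% of all probes). Their part in the lower Insl5, Chga, Tph1 and Neurod1 levels was not tested. Enteric neurons and glia, which share granins and Syp with endocrine cells, had 8 of 15 markers tested, summing to 320 to 552 in DSS WT, 297 to 373 in DSS Mbd2KO, 345 to 784 in naive WT and 257 to 671 in naive Mbd2KO, and Elavl4, S100b and Snap25 were detected on 0 arrays. Mast cells, which also express Tph1, had 4 of 11 markers tested, summing to 1305 to 1535 in DSS WT, 1132 to 1374 in DSS Mbd2KO, 1743 to 2133 in naive WT and 1671 to 2385 in naive Mbd2KO, and the mast cell proteases Mcpt1, Mcpt2, Mcpt4, Tpsb2 and Tpsab1 were detected on 0 arrays. Of the tested mast cell markers, the chymase Cma1 was detected on 15 of 18 arrays, Kit and Hdc on 18 and Fcer1a on 6. Against the mean of Pyy and Insl5, r was 0.730 for Cma1, 0.195 for Fcer1a, -0.352 for Kit and -0.425 for Hdc. For the mean of Chga, Chgb and Tph1, the coefficients were 0.132 for Cma1, 0.177 for Hdc, 0.331 for Kit and -0.244 for Fcer1a. The epithelial identity list summed to 67768 to 77354 with DSS and 70208 to 85565 without it. Colonocyte markers, 9 of 10 tested, had 3 called lower with DSS on average, where 10.2% of all probes were. Of 7 genes of distal colon position 6 were tested, and 1, Hoxa13, was called lower with DSS on average (-0.50). In limma after scaling to a common median it was not called (-0.22, adjusted p 0.148). The part of these lists in the Insl5 level was not tested.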

How the data were processed

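Per the file headers, the deposited table of 45281 probes and 974 control probes held bead intensity without normalization, a detection p-value per probe and array, bead numbers and the standard error of the beads. The authors' notes name lumi and limma without versions, and the export format was 1.1.1. Another 36 columns of per-sample values were not used. Arrays 4R and 5R differed less from 4 and 5 (SD of log2 differences 0.194 and 0.236) than other pairs of their groups (at least 0.334 and 0.287), so each pair was averaged, which left 16 samples.

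Signals went through neqc with 936 negative controls and an offset of 16 (limma 3.58.1, R 4.3.3). A probe was tested if its detection p-value was below 0.05 on 4 arrays or more (21938 probes of 15757 genes). One mean per group was fitted with lmFit and eBayes (12 residual and 4.71 prior degrees of freedom, two-sided, Benjamini-Hochberg within each contrast). Averaged contrasts weight both conditions or genotypes equally. A summed level is the sum of unlogged normalized signals, with the brightest tested probe of each gene. The labels give no batch, and the number of arrays limits the precision.

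All member probes are named. From other lists, up to 4 called genes per list and contrast were named, those with the largest change first except items not reported here, and the 10 genes most like the mean of the members. Genes named as like the 2 sets, Fev, Insm1, Ppy and Pcsk1n among them, were chosen after their values were seen, as were the marker genes named at 0 arrays. Members and lists were chosen with earlier results of these data known. The model was tested on simulated data. Alternatives were the background correction, offset, normalization, filter, repeat arrays, array weights, groups fitted and each sample left out. Promoters came from RefSeq, and all 10 genes matched.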

Additional observations from a re-analysis of the deposited data

Results flagged for a closer look

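In each of 48 combinations of probe and group, the lowest or highest of the 4 samples was compared with its nearest neighbour, and 3 stood apart by more than Dixon's 95% critical value, about as many as the 1 in 20 that chance gives. Chga at ILMN_2814927 was 8.25 in naive Mbd2KO sample 15, below the next value of 8.93. Gcg was 12.44 in naive WT sample 11, above the next value of 12.12. Neurod1 was 5.18 in DSS WT sample 2, below the next value of 5.67.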

How the results depend on the processing

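No paired analysis was possible because the 4 groups share no sample numbers. Member probes called at an adjusted p under 0.05 are counted here, with the calls over all tested probes in the same fit in brackets. For the genotype average, 3 probes (3189) became 6 with 18 separate arrays (4130), 5 with array weights (3694), 6 with scaling to a common median (2710), 1 without background correction (3007) and 0 without a filter on dim probes (2481). For the DSS average, 1 (4558) became 2 with 18 separate arrays (5827), 4 with array weights (5734) and 3 with the common median (9149). For DSS in Mbd2KO, 1 (2070) became 0 without a filter (1699) and 0 when only the groups compared were fitted (1620). For DSS in WT, 0 (2290) became 1 with the common median (5273) and 1 when only the groups compared were fitted (1738). Leaving out 1 sample at a time gave 0 to 2 for the genotype with DSS (466 to 1468, against 0 and 1232 in the full fit), 0 to 2 without DSS (449 to 1367, against 0 and 1140), 0 to 0 for DSS in WT (1203 to 2728), 0 to 2 for DSS in Mbd2KO (1097 to 2313), 0 to 0 for the difference between genotype effects (0 to 1), 0 to 5 for the genotype average (2292 to 3482), with 0 in 7 of 16 fits, and 1 to 3 for the DSS average (3512 to 4643). Without naive WT sample 9, Tph1 (-1.13, adjusted p 0.0494) and Neurod1 (-0.86, 0.0343) were called between naive genotypes.

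Called members kept their direction in 121 of 121 comparisons with an alternative and their call in 78. Values that were not called changed sign in 91 of 1943, and no called value did. The DSS average of Insl5 was called in all 24 alternatives, between -2.21 and -1.45, with adjusted p up to 0.0198. The common median moved the median of all probes with DSS by 0.25, and there the DSS averages of Chga (0.30 at 2 probes) and Chgb (0.28), uncalled in both, turned positive, and Tph1 was called (0.59, adjusted p 0.0494). With the common median, the averaged genotype calls lower in Mbd2KO were 9 of 16 for the granule list (8 before) and 6 of 17 for the transcription factors (6 before, with Hhex, higher before, no longer called). The causes were not tested.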
